A study of Rattus norvegicus with 4 samples.

Results

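Glycolysis and hypoxia response genes were followed in rat tendon stem/progenitor cells (TSPCs), proliferative fibroblast-like cells of tendon, after treatment with U0126, an inhibitor of MEK, the kinase that activates ERK. The set was listed by name, with earlier results of these data known. It holds 40 genes for glucose uptake, the glycolytic enzymes, lactate handling, entry of pyruvate into mitochondria and the hypoxia-inducible factor (HIF) pathway. Of these, 39 were found under their symbol among 32623 genes of the table, and 38 were among the 14023 genes with enough counts for a test. Ero1l was not found under that symbol. Car12, a membrane carbonic anhydrase, was too low for a test: its 8 counts in controls and 4 in treated libraries give a ratio, scaled for depth, of 0.561 (95% exact binomial interval 0.124 to 2.09, counting error only). Pkm, the muscle and proliferating-cell pyruvate kinase, had 2 rows, and the one with more counts was used.

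The study concerns a membrane that carries U0126 for tendon defects, and its libraries are total RNA of TSPCs from tendon. It has 2 groups of 2 libraries, control cells given DMSO, the solvent, and cells given U0126, and the sources used here do not state dose, time, strain or age. The labels call the 2 libraries of a group biological replicates without naming an animal, culture or day. The p-values therefore rest on the spread among 4 libraries, which may be technical. Total counts lay between 36888913 and 42785190 per library. Levels are given as CPM, counts scaled to a common library size and corrected for library composition by TMM, and n is 2 libraries per group throughout. Each gene was tested with edgeR (quasi-likelihood, two-sided), and p was adjusted over all tested genes by the Benjamini-Hochberg method, with a threshold of 0.05. "Fell" and "rose" are used only for genes past it. At that threshold 11.5% of all tested genes were lower with U0126 and 8.41% were higher.

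Glycolysis splits glucose into pyruvate in the cytosol, and cells that make much lactate reduce that pyruvate with lactate dehydrogenase and export it through monocarboxylate transporters. When oxygen is low, the prolyl hydroxylases that mark HIF alpha subunits for destruction stop working. HIF then switches on most of the glycolytic genes together with genes of pH control, redox balance and its own feedback. Growth factor signalling through ERK and MYC can act on many of the same genes, and tendon, a poorly vascularized tissue, is known for its reliance on glycolysis.

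HIF binds a core motif spelled ACGTG or GCGTG. Promoters of 5 members are printed because they stand for the main patterns below: an enzyme gene and a glucose transporter gene that fell, the 2 lactate transporters that moved in opposite directions, and the hypoxia marker that rose. Each is the RefSeq sequence (build GRCr8) from 250 bases before to 50 bases after the gene's start, 5′ to 3′ on the gene's strand, and capitals mark the core motif on either strand. A run of CACGTG holds the motif on both strands and was counted as 1 site. It is also the E-box that MYC and other basic helix-loop-helix factors bind.
Ldha (chr1:106507842-106508141, plus strand): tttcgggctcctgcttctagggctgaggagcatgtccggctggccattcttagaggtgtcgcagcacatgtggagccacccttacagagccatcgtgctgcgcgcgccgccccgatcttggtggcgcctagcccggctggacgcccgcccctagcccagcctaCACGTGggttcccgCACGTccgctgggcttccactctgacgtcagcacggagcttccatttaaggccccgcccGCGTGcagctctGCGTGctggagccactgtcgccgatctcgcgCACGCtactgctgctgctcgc
Slc2a1 (chr5:138002272-138002571, plus strand): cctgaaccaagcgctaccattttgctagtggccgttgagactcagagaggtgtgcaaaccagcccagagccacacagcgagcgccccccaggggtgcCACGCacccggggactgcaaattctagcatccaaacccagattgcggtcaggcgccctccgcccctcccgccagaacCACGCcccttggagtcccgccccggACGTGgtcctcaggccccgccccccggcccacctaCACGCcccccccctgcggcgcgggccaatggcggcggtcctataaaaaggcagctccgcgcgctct
Slc16a3 (chr10:106712078-106712377, plus strand): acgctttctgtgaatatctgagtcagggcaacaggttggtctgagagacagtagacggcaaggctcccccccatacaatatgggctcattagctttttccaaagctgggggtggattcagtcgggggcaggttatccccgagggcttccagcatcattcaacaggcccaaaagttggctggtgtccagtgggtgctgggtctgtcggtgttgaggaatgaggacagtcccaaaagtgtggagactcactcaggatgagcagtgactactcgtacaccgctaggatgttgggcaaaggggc
Slc16a1 (chr2:194812410-194812709, plus strand): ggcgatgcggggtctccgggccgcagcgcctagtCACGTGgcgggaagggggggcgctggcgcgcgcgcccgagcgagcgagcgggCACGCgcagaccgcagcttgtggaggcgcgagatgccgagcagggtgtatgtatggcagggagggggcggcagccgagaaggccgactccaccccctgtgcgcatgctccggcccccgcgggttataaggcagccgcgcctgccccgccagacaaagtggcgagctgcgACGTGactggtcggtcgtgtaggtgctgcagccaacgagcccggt
Car9 (chr5:62558774-62559073, plus strand): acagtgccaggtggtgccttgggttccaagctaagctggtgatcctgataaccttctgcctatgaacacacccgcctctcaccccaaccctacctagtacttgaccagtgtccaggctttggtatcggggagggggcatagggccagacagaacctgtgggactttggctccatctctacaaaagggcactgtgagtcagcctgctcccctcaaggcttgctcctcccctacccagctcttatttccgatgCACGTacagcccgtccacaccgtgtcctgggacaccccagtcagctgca

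The Ldha window held 5 sites, at -87, -73, -14, -2 and 30 from the start. Slc2a1 had 4 and Slc16a1 had 3. Car9 had a single site, directly at its start at position 2, and the Slc16a3 window had none. RefSeq windows were found for 36 of the 39 members, and not for Ndrg1, Pgk1 and Slc2a3. Of 41 windows of these 36 genes, 29 (70.7%) held the motif, against 41.6% of all 33469 RefSeq windows. Among members the motif was in 11 of 17 windows of genes that fell (64.7%), in 3 of 3 of genes that rose and in 14 of 20 of genes that did not pass (70%). A match is a run of letters and does not show binding.

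With U0126, 17 of the 38 tested members fell, 3 rose and 18 did not pass. Thus 44.7% of members were among the lower genes, against 11.5% of all genes. The members were chosen with earlier results of these data known, so this and the comparisons below describe the set and do not test it. Most members were well expressed. Among genes with a control mean of at least 20 CPM, 16 of 28 members fell, against 14.7% of all genes at that level. The median log2 fold change was -0.45 over the members and 0.02 over all tested genes. Both U0126 libraries lay below both controls for 25 members, above both for 7 and overlapped them for 6. The first of these arrangements was seen in 31% of all tested genes and the second in 31.8%. The fall was moderate: 11 members fell by at least 1.5-fold, a size reached downward by 8.54% of all genes. In bulk RNA, fewer cells of a type and less RNA per cell cannot be told apart. The plot of values by library shows 12 of the 15 glycolytic enzyme genes with both U0126 libraries to the left of both controls.

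**Figure D1:**
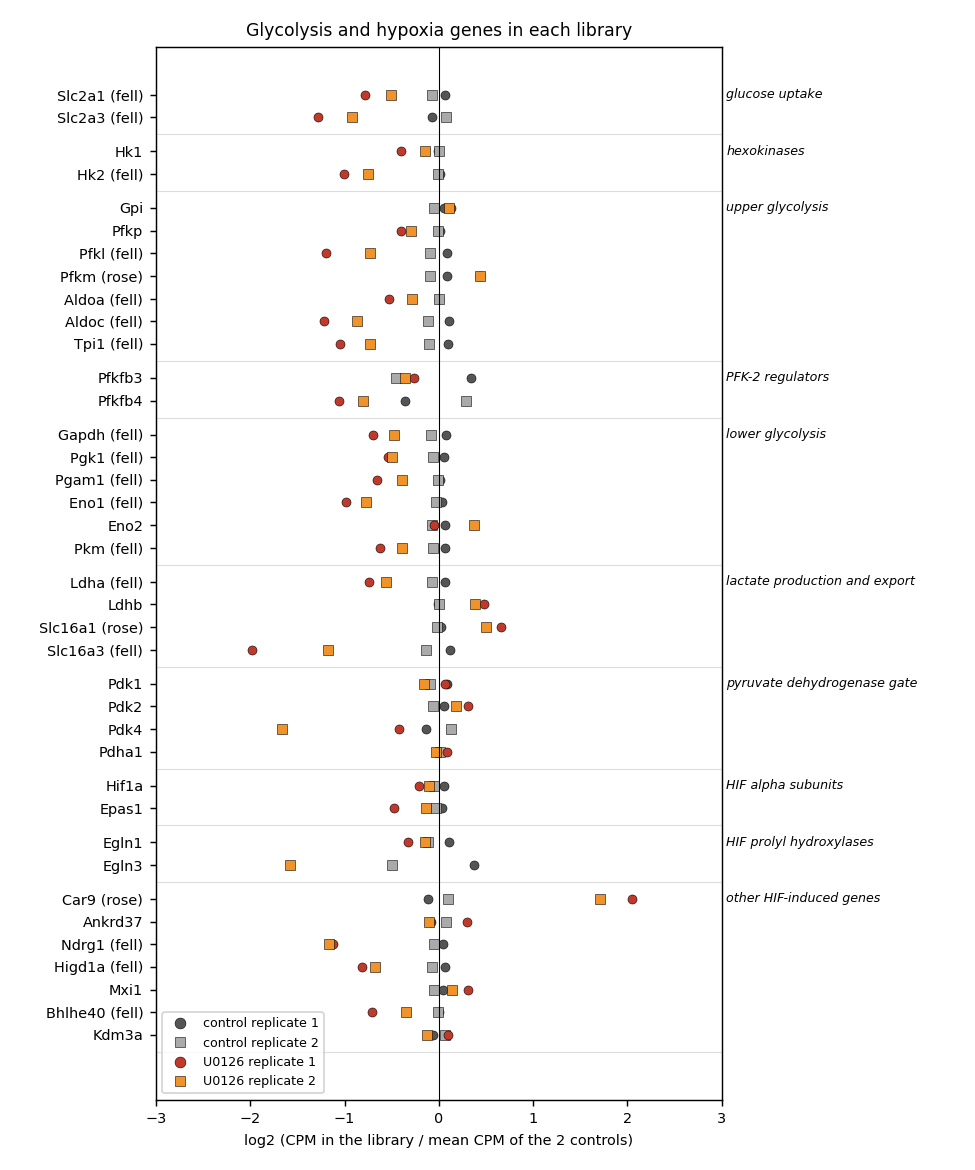
Level of each tested member in each of the 4 libraries, as log2 of its CPM over the mean CPM of the 2 controls, grouped by role. Both U0126 libraries sit left of both controls for 25 of the 38 genes, while Car9, Slc16a1 and Pfkm sit to the right; Egln3 had 0 counts in U0126 replicate 1, which is not drawn.

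Leaving out a U0126 library raised the share of all genes called, while leaving out a control ended many member calls. The fold changes themselves moved less. The median log2 fold change over the members was -0.45 with all libraries and -0.42 and -0.53 without control replicate 1 or 2. With 1 control left, the spread within groups comes from the U0126 libraries alone. Without control replicate 1, 5 members were still lower and 1 higher, and without control replicate 2, 10 and 1. The share of all genes called went down as well, from 19.9% to 6.32% and 6.24%. Car9, Eno1, Hk2, Ndrg1, Slc16a3 and Slc2a3 passed under all 12 alternatives tried.

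Both glucose transporter genes fell. Slc2a1 encodes GLUT1, the broadly expressed transporter of growing cells. It was at 77.7 and 70.6 CPM in the controls and at 43.1 and 52.4 CPM with U0126, a 1.55-fold fall (edgeR adjusted p = 0.0117; 0.124 and 0.0686 without control replicate 1 or 2). Slc2a3 encodes the high-affinity transporter GLUT3. It was at 38.8 and 42.9 CPM in the controls and at 16.8 and 21.6 CPM with U0126. This was a 2.13-fold fall (log2 fold change -1.09 ± 0.14 SE, edgeR adjusted p = 0.00279). The groups did not overlap for either gene, and in 31% of all tested genes both U0126 libraries lay below both controls. Per length, in the deposited FPKM, Slc2a1 made up 73.0% and 68.4% of the summed level of these 2 genes in the controls. With U0126 it made up 76.6% and 76.1%. An annotated Slc2a3-like copy, LOC100909595, is not in that sum. In the controls the copy was at 12.4 and 16.2 FPKM, against 11.1 and 12.5 FPKM for Slc2a3. With U0126 the copy was at 5.47 and 7.26 FPKM and Slc2a3 at 4.88 and 6.10 FPKM.

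Hexokinases trap glucose in the cell as glucose-6-phosphate. Hk2, the inducible, mitochondrion-binding form, fell 1.83-fold, from 40.6 and 40.0 CPM to 20.1 and 23.9 CPM (edgeR adjusted p = 0.00323). Hk1, the constitutive form, was more abundant per length, at 36.9 and 37.0 FPKM in the controls against 7.42 and 7.31 FPKM for Hk2. It was at 99.2 and 99.8 CPM in the controls and at 75.1 and 89.8 CPM with U0126. It did not pass (log2 fold change -0.27 ± 0.11 SE, edgeR adjusted p = 0.130), and leaving out U0126 replicate 1 or 2 gave -0.15 or -0.41. The Hk2 share of hexokinase FPKM was 16.8% and 16.5% in the controls and 11.6% in each U0126 library.

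The 3 phosphofructokinase genes, which encode subunits of the committing step of glycolysis, did not move alike. Pfkl, the liver-type subunit and the most abundant here, fell 1.92-fold. Its levels were 95.5 and 84.5 CPM in the controls and 39.3 and 54.3 CPM with U0126 (edgeR adjusted p = 0.00728; 0.0658 without control replicate 1). Pfkm, the muscle-type subunit, rose 1.36-fold, from 28.6 and 25.4 CPM to 36.6 CPM in each U0126 library (edgeR adjusted p = 0.0302; 0.141 and 0.313 without control replicate 1 or 2). Pfkp, the platelet-type subunit, was at 30.7 and 30.3 CPM in the controls and 23.2 and 24.97 CPM with U0126. It did not pass (edgeR adjusted p = 0.0641, and 0.0402 with library totals alone). Its log2 fold change was -0.34, and -0.29 or -0.41 without U0126 replicate 1 or 2. Per length, Pfkl held 59.1% and 57.5% of phosphofructokinase FPKM in the controls and 37.7% and 44.7% with U0126. The Pfkm share went the other way, from 17.7% and 17.3% to 35.2% and 30.2%. Shares were not tested.

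Pfkfb3 and Pfkfb4 make and break fructose-2,6-bisphosphate, the activator of phosphofructokinase, and neither passed. Pfkfb3 was at 20.7 and 11.9 CPM in the controls and at 13.6 and 12.7 CPM with U0126, so that control replicate 1 stood apart. In FPKM the same libraries read 5.43, 6.21, 6.85 and 6.02, with control replicate 1 the lowest. The counts and the length-scaled values of this gene therefore order the libraries differently, and its log2 fold change went from -0.30 to 0.14 without control replicate 1. Pfkfb4 was at 2.70 and 4.23 CPM in the controls and at 1.66 and 1.99 CPM with U0126 (edgeR adjusted p = 0.0734). Its log2 fold change was -0.93, and -0.80 or -1.07 without U0126 replicate 1 or 2.

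Around these steps the other enzymes of upper glycolysis split as well. Gpi, the isomerase between hexokinase and phosphofructokinase, was at 276 and 256 CPM in the controls and at 292 and 288 CPM with U0126 (log2 fold change 0.12 ± 0.09 SE, edgeR adjusted p = 0.377). Aldoa, the main aldolase, was at 807 and 808 CPM in the controls and at 559.9 and 662 CPM with U0126, a 1.32-fold fall (edgeR adjusted p = 0.0390). That call was lost without control replicate 1 or 2 or U0126 replicate 1 (edgeR adjusted p = 0.208, 0.220 and 0.0578). Aldoc, the brain-type aldolase at 1.43% and 1.41% of aldolase FPKM in the controls, fell 2.05-fold, from 12.9 and 11.1 CPM to 5.17 and 6.57 CPM (edgeR adjusted p = 0.00848; 0.0952 without control replicate 1). Tpi1, triosephosphate isomerase, fell 1.84-fold, from 203 and 177 CPM to 91.8 and 114 CPM (edgeR adjusted p = 0.00436; 0.0504 without control replicate 1). Thus 10 of the 15 enzyme genes of the chain fell, counting those below, 1 rose and 4 did not pass. Without control replicate 1 or 2 the fallen enzymes numbered 2 and 5.

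In lower glycolysis, where ATP and NADH are made, 5 of 6 genes fell. Eno1, the ubiquitous enolase (chromosome 5, 167288223 to 167299609, rn6), showed the clearest change of the chain. It was at 1129 and 1081 CPM in the controls and at 561 and 647 CPM with U0126, a 1.83-fold fall (log2 fold change -0.87 ± 0.10 SE, edgeR adjusted p = 0.00181). Eno2, the neuronal-type enolase, did not follow it: its values were 66.8 and 60.5 CPM in the controls and 61.3 and 82.4 CPM with U0126. The Eno2 share of enolase FPKM was 4.36% and 4.13% in the controls and 7.77% and 8.94% with U0126. The Eno2 value rested on the library used, with a log2 fold change of 0.37 without U0126 replicate 1 and -0.06 without U0126 replicate 2.

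Gapdh, the dehydrogenase step and a common reference gene (chromosome 4, 157676595 to 157679962, rn6), was at 1529 and 1363 CPM in the controls. With U0126 it was at 889.5 and 1039 CPM, a 1.4997-fold fall (edgeR adjusted p = 0.0126; 0.113 and 0.05002 without control replicate 1 or 2). Pgk1, the first ATP-yielding kinase, fell 1.43-fold, from 469 and 434 CPM to 311 and 319.8 CPM (edgeR adjusted p = 0.00821). Pgam1, the mutase that follows it, fell 1.43-fold too, from 464 and 458 CPM to 292 and 350.4 CPM (edgeR adjusted p = 0.0171). Pkm fell 1.42-fold, from 1266 and 1158 CPM to 789 and 923 CPM (edgeR adjusted p = 0.0200). The control and U0126 values of these 4 genes did not overlap, but none of the 4 passed without control replicate 1 or 2, with edgeR adjusted p of 0.0626 to 0.162 for Pgk1, Pgam1 and Pkm. Both U0126 libraries lay below both controls in 31% of all tested genes too. Summed over the 15 enzyme genes, the deposited TPM came to 7828 and 7548 in the controls and to 4657 and 5446 with U0126. In FPKM of the controls, Gapdh was the most abundant member (1522 and 1355), followed by Pkm (717 and 653), Eno1 (651 and 622), Aldoa (559 and 559.6) and Ldha (452 and 413). The control values of the neighbours in that order did not overlap, though Pkm and Eno1 came close.

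**Figure D2:**
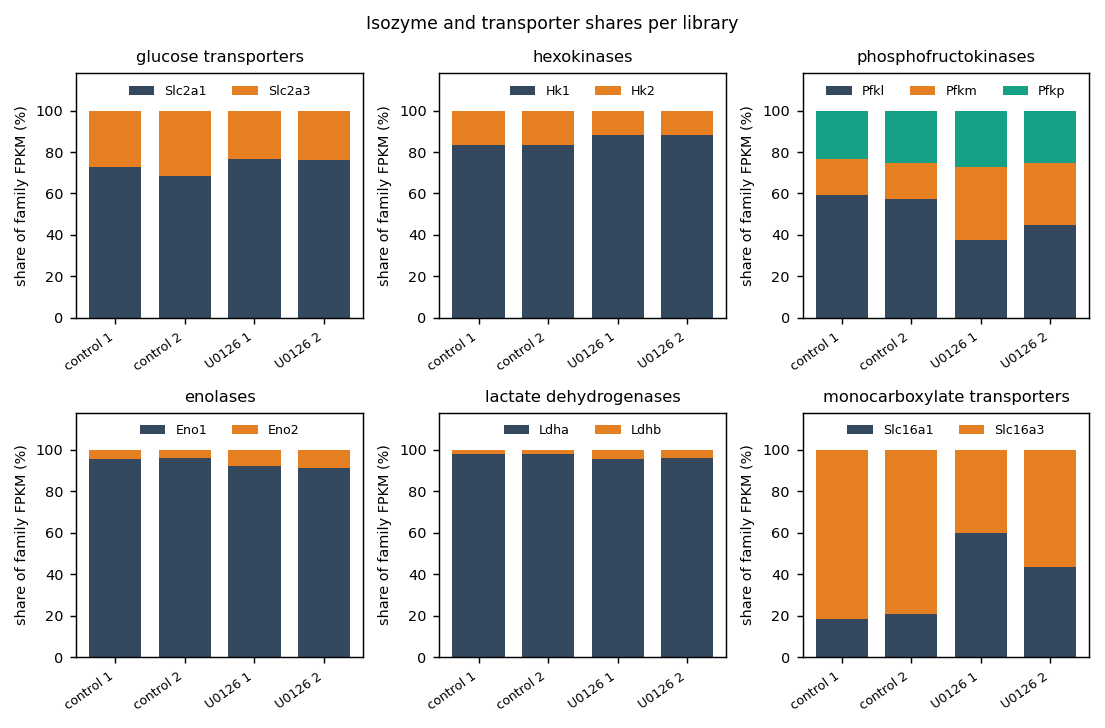
Share of each family's summed FPKM held by each member, per library, in 6 families, with annotated copies left out of the sums. With U0126 the Pfkm, Slc16a1, Eno2 and Ldhb parts are larger and the Pfkl, Slc16a3 and Hk2 parts smaller in both libraries; the Slc16a1 share goes from 18.2% and 20.6% to 60.0% and 43.4%.

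Lactate handling changed in a divided way. Ldha, the lactate-forming dehydrogenase subunit whose promoter is printed above, fell 1.56-fold. It was at 727 and 664 CPM in the controls and at 418 and 473 CPM with U0126 (edgeR adjusted p = 0.00607; 0.0726 without control replicate 1). Ldhb, the heart-type subunit, was at 12.2 CPM in each control and at 17.0 and 15.9 CPM with U0126. It just missed the threshold (log2 fold change 0.44 ± 0.13 SE, edgeR adjusted p = 0.0535), and leaving out U0126 replicate 1 or 2 gave 0.39 or 0.47. Ldhb remained a small part of lactate dehydrogenase FPKM, 1.96% and 2.14% in the controls and 4.64% and 3.86% with U0126.

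The 2 lactate transporters moved in opposite directions. Slc16a3 encodes MCT4, the low-affinity exporter of glycolytic cells (chromosome 10, 110138586 to 110148358, rn6). It was at 128 and 107 CPM in the controls and at 29.7 and 52.2 CPM with U0126. The 2.87-fold fall was the largest among members that passed (log2 fold change -1.52 ± 0.24 SE, edgeR adjusted p = 0.00601), and without either U0126 library it was -1.17 or -1.99. Slc16a1 encodes MCT1, which carries lactate both ways. It rose 1.49-fold, from 34.3 and 33.3 CPM to 53.3 and 47.6 CPM (edgeR adjusted p = 0.00871; 0.0989 and 0.124 without control replicate 1 or 2). Their FPKM shares shifted from mostly Slc16a3, 81.8% and 79.4%, to 40.0% and 56.6% with U0126. Bsg, the chaperone that both transporters need at the membrane, was at 833 and 776 CPM in the controls and 879 and 872 CPM with U0126 and did not pass (edgeR adjusted p = 0.388).

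The genes that set the use of pyruvate by mitochondria did not pass. Pyruvate dehydrogenase kinases switch the enzyme off, and Pdha1 is its catalytic subunit. Pdha1 was at 130.4 and 133 CPM in the controls and 139.7 and 129 CPM with U0126. Pdk1, the HIF-induced kinase, was at 19.5 and 17.1 CPM in the controls and 19.2 and 16.5 CPM with U0126, and the groups of both genes overlapped. Pdk2 was at 10.2 and 9.44 CPM in the controls and 12.2 and 11.1 CPM with U0126 (edgeR adjusted p = 0.276). Pdk4, the starvation-induced kinase, was low, at 1.51 and 1.81 CPM in the controls and 1.24 and 0.525 CPM with U0126 (edgeR adjusted p = 0.206). Its log2 fold change was -0.91, and -1.66 or -0.44 without U0126 replicate 1 or 2.

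The HIF alpha subunits themselves showed small differences. Hif1a was at 145 and 135 CPM in the controls and at 121 and 131 CPM with U0126 (log2 fold change -0.16 ± 0.09 SE, edgeR adjusted p = 0.289). Epas1, which encodes HIF-2 alpha, was at 179.7 and 172 CPM in the controls and at 127 and 161 CPM with U0126. Its log2 fold change was -0.29 ± 0.12 SE (edgeR adjusted p = 0.149), and -0.13 or -0.48 without U0126 replicate 1 or 2. HIF alpha is controlled mainly as a protein, which these data do not measure. Of the prolyl hydroxylases, Egln1, the main oxygen sensor, was at 33.3 and 28.5 CPM in the controls and 24.7 and 27.8 CPM with U0126 and did not pass (edgeR adjusted p = 0.240). Egln3, itself a HIF target, was at 2.77 and 1.52 CPM in the controls. With U0126 it had 0 counts in replicate 1, which allows up to 0.0791 CPM, and 0.718 CPM in replicate 2 (edgeR adjusted p = 0.111). Over all 4 libraries its adjusted p was 0.560 with DESeq2 and 0.0628 with limma-voom. Its log2 fold change was -2.58, and -1.57 without U0126 replicate 1. Without U0126 replicate 2 the only treated library has 0 counts, so that fold change has no defined size.

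Among the other HIF-induced members, 3 fell, 1 rose and 3 did not pass. Car9 encodes carbonic anhydrase IX, a surface enzyme of pH control and a widely used hypoxia marker (chromosome 5, 59008933 to 59015528, rn6). It was at 44.9 and 52.0 CPM in the controls and at 199.995 and 159 CPM with U0126. This 3.71-fold rise was the largest change of any member that passed (log2 fold change 1.89 ± 0.14 SE, edgeR adjusted p = 2.94e-04). Ndrg1, a stress-induced gene of growth arrest, went the other way, from 70.9 and 66.1 CPM to 31.4 and 30.6 CPM, a 2.21-fold fall (edgeR adjusted p = 4.68e-04). The mitochondrial protein gene Higd1a fell 1.67-fold, from 70.6 and 64.0 CPM to 38.3 and 42.2 CPM (edgeR adjusted p = 0.00351; 0.0588 without control replicate 1). Bhlhe40, a transcriptional repressor, fell 1.43-fold, from 65.2 and 64.6 CPM to 39.6 and 50.9 CPM (edgeR adjusted p = 0.0326; 0.193 and 0.194 without control replicate 1 or 2).

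Ankrd37, Mxi1 and Kdm3a did not pass. Ankrd37, a small ankyrin-repeat gene often used as a HIF readout, was at 2.24 and 2.50 CPM in the controls and 2.93 and 2.21 CPM with U0126. Mxi1, a MYC antagonist, was at 15.96 and 14.9 CPM in the controls and 19.2 and 17.0 CPM with U0126. Kdm3a, a histone demethylase, was at 20.6 and 22.5 CPM in the controls and 23.0 and 19.7 CPM with U0126. Their edgeR adjusted p-values were 0.801, 0.268 and 0.969, and the groups overlapped for Ankrd37 and Kdm3a. Ero1a, the endoplasmic reticulum oxidase, lies outside the set as matched; RefSeq lists Ero1l as its synonym. It fell 1.64-fold, from 67.7 and 77.0 CPM to 45.9 and 42.4 CPM (edgeR adjusted p = 0.00440).

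Values for 7 lists of neighbouring genes came from the same test. Per list, 0% to 20.5% of tested genes fell and 0% to 25% rose, against 11.5% and 8.41% of all tested genes. Shares near these were seen for mitochondrial pyruvate use (8.33% lower, 4.17% higher) and glycogen genes (14.3% each way). Among other HIF pathway components 11.8% were lower. Among 15 other tested glycolytic enzymes and regulators, 3 fell and 12 did not pass. Those that fell were the galactokinase Galk1 (1.42-fold), muscle enolase Eno3 (1.90-fold) and the mitochondrial glycerol-3-phosphate dehydrogenase Gpd2 (1.83-fold). None of these 3 passed without control replicate 1 or 2 (edgeR adjusted p from 0.0972 to 0.245). Of 12 other sugar and monocarboxylate transporters, 3 rose and 1 fell. The sugar transporters Slc2a12 and Slc2a10 rose 2.41-fold and 1.54-fold, while Slc16a7, which encodes MCT2, fell 1.91-fold. Slc2a10 lost its call without control replicate 1 or 2 and Slc16a7 only without control replicate 2, while Slc2a12 kept its call. Of 24 genes listed for mitochondrial pyruvate use and the citric acid cycle, 1 rose, the cytosolic malic enzyme Me1 (1.41-fold). Another 2 fell, the mitochondrial malic enzyme Me2 (1.55-fold) and fumarase Fh (1.32-fold). None of the 3 passed without either control (edgeR adjusted p from 0.104 to 0.244). Of 10 pentose phosphate genes, 0 passed edgeR's test, with 4 at an unadjusted p below 0.05 (2 higher and 2 lower); DESeq2 called 2 lower and library totals alone 1 lower, limma-voom 0.

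Of 14 glycogen genes, 2 rose and 2 fell (14.3% each, against 8.41% and 11.5% of all tested genes). Phkb, a regulatory subunit of phosphorylase kinase, rose 3.28-fold, from 10.3 and 8.78 CPM to 37.8 and 24.7 CPM (edgeR adjusted p = 0.00225). The branching enzyme Gbe1 rose 1.51-fold, and glycogen synthase Gys1 and the targeting subunit Ppp1r3c fell 1.49-fold and 1.41-fold. Of 17 other HIF pathway components, 2 fell: Cited2, a HIF-induced competitor for the coactivator p300, 1.86-fold, and Eloc, an elongin subunit of the VHL complex, 1.35-fold. Among these, Phkb alone passed without control replicate 1 or 2; the other 5 were at edgeR adjusted p from 0.0527 to 0.396.

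Other hypoxia-inducible genes did not share one direction. Among 39 with a test, 5 were called higher, 8 lower and 26 neither, with a median log2 fold change of 0.07. Igfbp3, an IGF-binding protein, rose 12.2-fold, and Ddit4, the mTORC1 inhibitor REDD1, rose from 25.6 and 22.9 CPM to 69.1 and 90.2 CPM (3.29-fold, edgeR adjusted p = 4.97e-04). The heme oxygenase gene Hmox1 rose 1.41-fold (edgeR adjusted p = 0.0115; 0.0958 and 0.150 without control replicate 1 or 2). Stc1, a secreted stanniocalcin, fell from 46.6 and 32.4 CPM to 7.67 and 10.9 CPM (4.26-fold, edgeR adjusted p = 0.00131). Pgf, placental growth factor, fell 3.21-fold. Without control replicate 1 or 2, 2 and 3 of these genes were called higher and 6 and 5 lower. Without U0126 replicate 1 or 2, 9 and 7 were called higher and 9 and 13 lower. Vegfa and Bnip3, 2 much used HIF targets chosen after their values were seen, did not pass. Vegfa was at 144 and 119.9 CPM in the controls and 123 and 179.8 CPM with U0126.

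**Figure D3:**
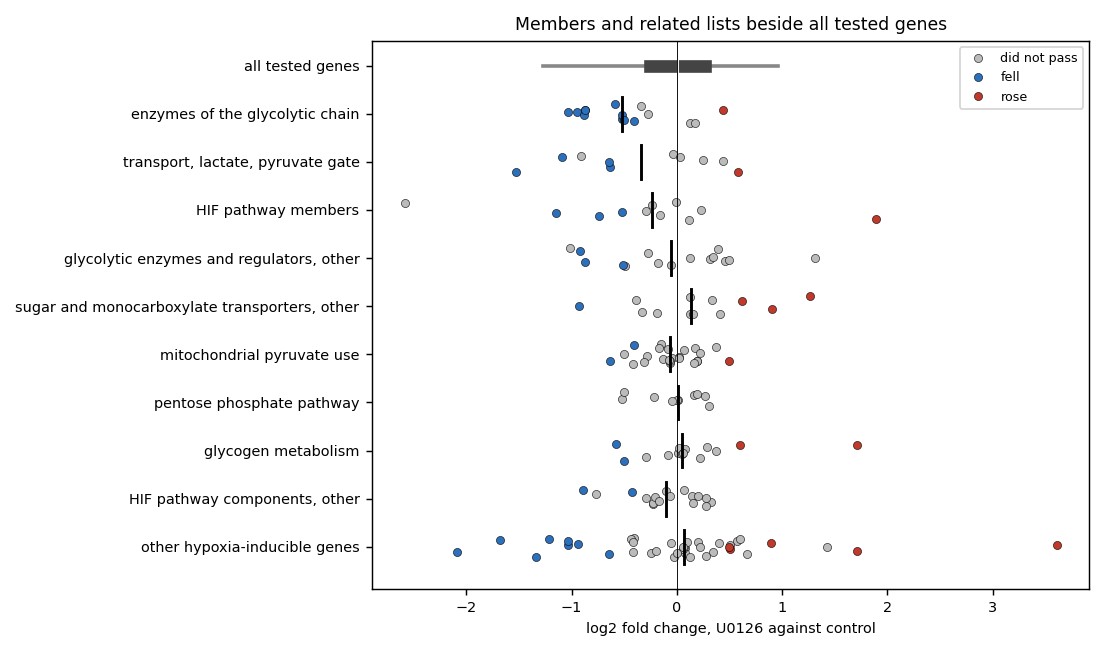
Log2 fold change of each tested gene in the member groups and in 7 lists of neighbouring genes, with a vertical bar at each median; for all tested genes the thick and thin lines span the 25th to 75th and the 5th to 95th percentiles. The glycolytic chain has a median of -0.52 against 0.02 for all genes, while the pentose phosphate, glycogen and other hypoxia-inducible lists have medians between 0.01 and 0.07.

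Several members have further rows in the rat annotation that are described as copies or relatives of them. Their sequences were not compared. How the authors' counting shared reads among such rows is not given in the sources used here. By their deposited descriptions, 8 members had 1 to 3 such rows with at least 10 counts. Copies held 52.4% and 52.3% of the combined Tpi1 counts and 49.8% and 49.5% of those of Eno2 in the controls. The large copies of these 2 genes, LOC100911515 and LOC100911625, lie close together on chromosome 9 (20213588 to 20217176 and 20251521 to 20260505, rn6), as Tpi1 and Eno2 do on chromosome 4. Levels of Tpi1 and Eno2 are therefore uncertain by about that split. For Gapdh the copies held 22.9% and 24.3%, for Pkm 18.1% and 19.4% and for Slc2a3 32.2% and 36.0%. The levels and family shares given above leave all copies out. With the copies added, chosen as an alternative after seeing the data, the log2 fold changes were -0.87 for Tpi1, -0.61 for Gapdh, -0.52 for Pkm, -0.88 for Eno1, -0.65 for Ldha, -1.10 for Slc2a3, -0.82 for Pfkfb4 (-0.93 alone) and 0.18 for Eno2, and no call of a member changed.

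**Figure D4:**
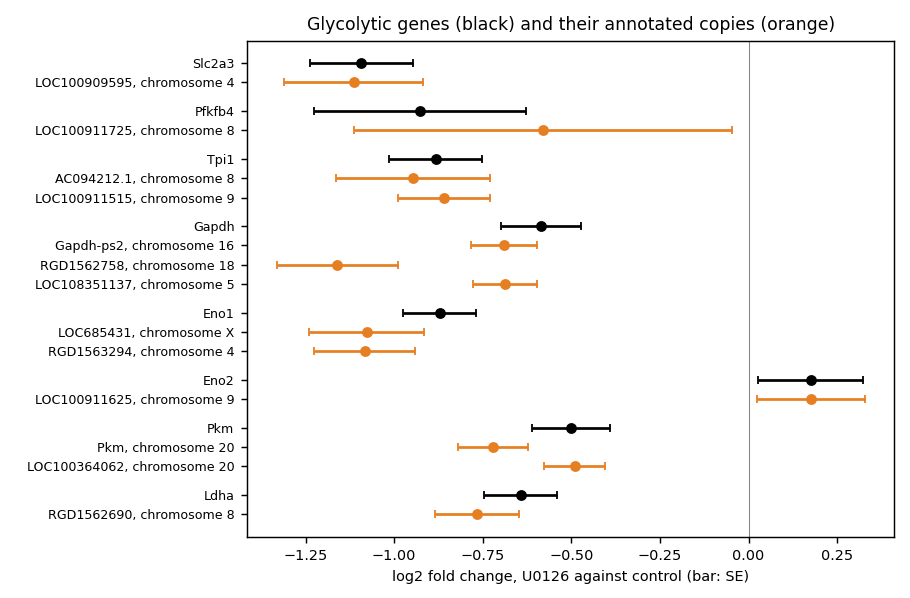
Log2 fold change with its standard error for 8 members (black) and the annotated copies of each (orange). Each copy lies on the same side of 0 as its member, with Eno2 and its copy to the right and all others to the left.

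Other features of the libraries moved with these changes, and their part in the results was not tested. Of 10 proliferation genes, all 10 fell, with Mki67 at 60.2 and 64.5 CPM in the controls and 9.09 and 4.94 CPM with U0126. Of 12 ERK output genes, 9 fell, among them Dusp6, from 37.1 and 37.3 CPM to 22.1 and 17.6 CPM. Mitochondrially encoded genes took 2.98% to 3.48% of counts in the controls and 4.82% to 5.64% with U0126. The 12 tendon and fibroblast markers, Col1a1 the largest, summed to between 28224 and 33123 CPM, and of 11 tested 5 rose and 2 fell. The tendon transcription factor Scx was at 12.2 and 11.8 CPM in the controls and 20.5 and 20.4 CPM with U0126, while Tnmd, a marker of mature tendon cells, was near 0 in all 4 libraries and not tested. Of 10 skeletal muscle markers, which also use glycolytic isozymes, 4 of 6 tested fell. These were Acta1 (1.99-fold), Des (2.95-fold), Cdh15 (3.53-fold) and Myod1 (12.2-fold), while Tnnt1 and Myh3 did not pass. Des, Cdh15 and Myod1 had low control means of 6.73, 2.20 and 2.00 CPM. The 10 markers summed to 203 and 225 CPM in the controls and 86.0 and 130.2 CPM with U0126, nearly all of it Acta1. Pax7 and Ckm were at 0 throughout. Of 9 macrophage and leukocyte markers found, 1 of 5 tested fell (Adgre1). Their sum was 15.4 to 15.8 CPM in the controls and 11.2 to 12.5 CPM with U0126. Most of it was Cd14, and Ptprc, Cd163 and Aif1 were at 0. Of 8 endothelial markers found, 0 of 2 tested passed edgeR's test, 0 also at an unadjusted p below 0.05. Their sum was 20.5 to 24.0 CPM over all libraries, nearly all of it Egfl7 (19.7 to 23.2 CPM). Cdh5, Tie1, Emcn and Cldn5 were at 0. Of 3 red blood cell markers found, Hbb and Slc4a1 were at 0 and the sum was at most 0.0791 CPM.

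**Figure D5:**
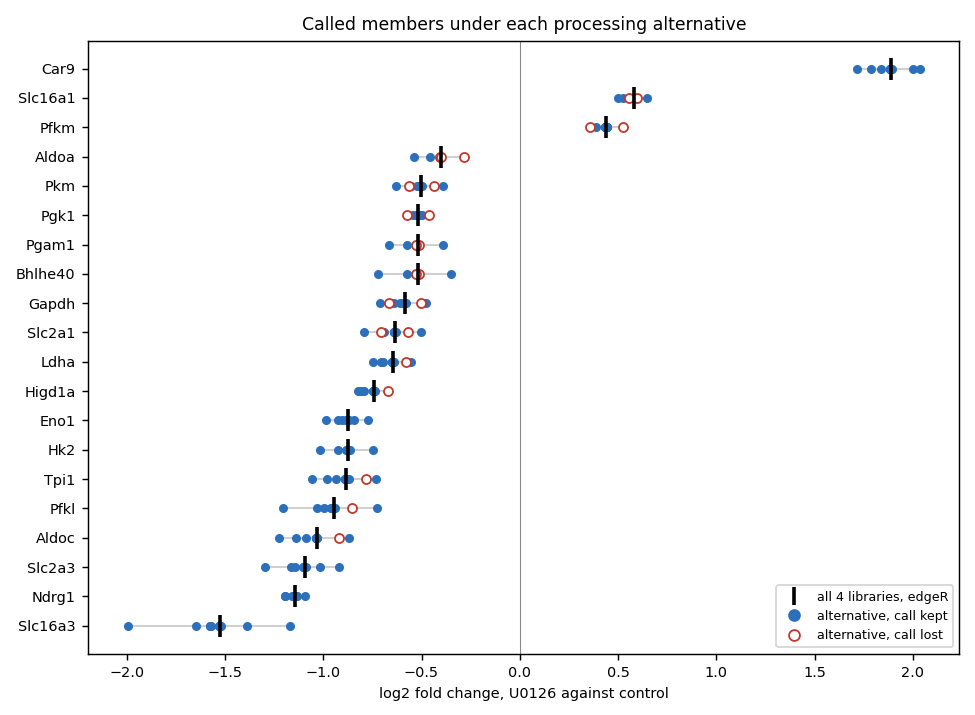
Log2 fold change of the 20 members that passed, with all 4 libraries (black bar) and under 12 processing alternatives (points; open where the call was lost). Each gene keeps its direction in all of them; Slc16a3 spans -1.99 to -1.17 and Car9 1.72 to 2.04.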

How the data were processed

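RNA was taken from 4 TSPC libraries, 2 per group, with groups and replicate numbers from the titles. The authors deposited counts, TPM and FPKM per Ensembl gene, per the file headers. The deposited counts are whole numbers and not normalized. The deposited TPM scale each library to one total and were only summed over the enzymes. The deposited FPKM, scaled for gene length, served for levels between genes, for shares within a gene family and, for Pfkfb3, beside the counts. The build is rn6, per the submitters' processing notes. Aligner, counter and strand setting: not given in the sources used here. Columns without a sample: 0.

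Genes passed edgeR's filterByExpr (minimum count 10, minimum total 15), were TMM-scaled and tested with glmQLFit and glmQLFTest (R 4.3.3, edgeR 4.0.16). The standard error is the log2 fold change over the square root of F. The test was tried on simulated counts. Members and lists were chosen with earlier results of these data known. All members are named; from each list, up to 3 genes per direction with the smallest adjusted p, except some that are not reported here. Alternatives used RLE factors, library totals, other filters, DESeq2 1.42.0, limma 3.58.1 (voom), a replicate block and leaving out each library. Promoters came from RefSeq. The floor of a count of 0 is 3 counts. Intervals and floors cover counting error only.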

Additional observations from a re-analysis of the deposited data

How the results depend on the processing

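The direction of all 20 called members held in every one of the 12 alternatives, and the 7 alternatives that kept all 4 libraries, together with adding the copies, left these calls in place. Leaving out each library gave 295 to 2138 higher and 604 to 2506 lower genes in all, 1 to 4 higher and 5 to 22 lower members, and 4 to 21 higher and 5 to 32 lower genes of the 7 neighbouring lists together. With the lone library of a group assumed to vary like the other group, dropping control replicate 1 or 2 left 6 and 11 of the 20 member calls, and the cause was not tested. Members that did not pass and changed sign were Pdha1 (-0.027 with library totals alone, -0.032 to 0.075 when leaving out each library), Pfkfb3 (-0.65 to 0.14), Eno2 (-0.063 to 0.37), Pdk1 (-0.15 to 0.058), Ankrd37 (-0.10 to 0.29) and Kdm3a (-0.12 to 0.087), all as log2 fold change over the libraries left out. The replicate block called 17 members lower and 3 higher, as without it, and 2371 genes in all against 2792; the numbers are not said to pair libraries, and deviations of same-numbered libraries correlated at -0.0461 over all 14023 tested genes and at -0.437 over the 38 members. Among the neighbouring genes named, the block ended the calls of Gpd2 (adjusted p = 0.0564) and Ppp1r3c (0.0536), no filter on low counts those of Ppp1r3c (0.0538) and Eloc (0.0552), and limma-voom that of Ppp1r3c (0.0583). DESeq2 called 24 neighbouring genes lower against 18. Members under about 3 CPM, such as Egln3, Pdk4 and Ankrd37, are limited by depth.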

Other observations

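Of the 17 members that fell, 16 were lower in U0126 replicate 1 than in U0126 replicate 2 (94.1%), Ndrg1 being the exception. Over all 1612 genes that fell, 62.1% had that order. It was also the order of 10 of the 12 ERK output genes, while 9 of the 10 proliferation genes had the opposite order. The order was noticed in the data and was not tested.

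The glycolytic enzyme genes made up 0.665% and 0.619% of each control library and 0.397% and 0.458% of each U0126 library in counts, and all 39 members found took 0.854% and 0.795% against 0.534% and 0.602%. Among 8 hypoxia-inducible genes of the neighbouring list that fell, Cxcl12, a chemokine, and Edn1, endothelin 1, named after their values were seen, were 2.52-fold and 2.05-fold lower. Plod2, a collagen lysyl hydroxylase, named likewise, rose 1.42-fold, while P4ha1, a collagen prolyl hydroxylase, was at 277 and 263 CPM in the controls and 265 and 264 CPM with U0126 and did not pass (edgeR adjusted p = 0.844).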
